A study of Homo sapiens with 6 samples.

Results

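WNT ligands, their Frizzled receptors, secreted antagonists and core effectors were compared between drug-tolerant persisters (DTPs) and parental PC9 cells. Probe sets were taken as members when the array annotation gave them exactly 1 gene symbol and that symbol named a WNT, a Frizzled (FZD), DKK1 to DKK4, an SFRP, WIF1, LRP5, LRP6, an Axin, a TCF/LEF factor, CTNNB1, RNF43 or ZNRF3. This gave 96 of 54613 tested probe sets and 45 of 19775 genes. The members were 17 ligands, 9 Frizzled receptors, 2 co-receptors, 9 secreted antagonists, 2 ubiquitin ligases, 3 genes for β-catenin and the Axins, and 3 TCF/LEF factors. A further 6 probe sets paired a matching symbol with a second gene and are not named here.

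PC9 cells come from a lung adenocarcinoma and depend on a mutant EGFR kinase. All 6 samples carried a GFP vector, and each was read on 1 Affymetrix Human Genome U133 Plus 2.0 array. For the 3 DTP samples the EGFR inhibitor erlotinib, at 2 µM, was added at 80% confluency. It was kept on for 9 days before the RNA was made on day 10. For the 3 parental samples the cells received DMSO. The sample protocols have them collected on day 3, when they were 100% confluent, whereas the design text and the methods of the study have DMSO given for as long as the drug. If the sample protocols hold, density and days in culture cannot be told apart from the drug. The study asked how reversible drug tolerance is kept up, and these arrays set the mRNA of surviving cells against that of untreated ones.

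WNT proteins are lipid-modified secreted signals that bind Frizzled receptors. With the co-receptors LRP5 and LRP6, they stop a cytoplasmic complex built on Axin from marking β-catenin for destruction, and β-catenin then acts in the nucleus with TCF/LEF factors. Dickkopf proteins such as DKK1 block LRP5 and LRP6, whereas SFRP proteins and WIF1 bind WNTs themselves, and the membrane ubiquitin ligases RNF43 and ZNRF3 remove Frizzled receptors from the cell surface. Some ligands, WNT5A and WNT11 among them, are best known for signalling without β-catenin, and in the lung the pathway is known for its roles in branching and in alveolar progenitors.

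In DTPs the antagonist DKK1 rose 19.5-fold, the receptor FZD2 3.91-fold and the factor TCF7L1 2.19-fold. FZD1 and FZD5, WNT10A and WNT11 also rose, and TCF7L2 (1.63-fold lower) and WNT5A (1.59-fold lower) fell. CTNNB1, LRP5 and LRP6 were not called. A gene was called when limma's Benjamini-Hochberg adjusted p over all genes was under 0.05 and the fold was over 1.5. Of the 45 members, 7 (15.6%) were called higher, where 8.08% of all genes were, and 2 (4.44%) were called lower, where 6.13% of all genes were. The arrays separated the groups widely, since 44.5% of all genes passed the adjusted p at any fold, 50.9% had an unadjusted p under 0.05, and for 53.7% the groups did not overlap, as for 27 of the 45 members. The median log2 fold change was 0.049 over the members and -0.048 over all genes. A lower signal from fewer cells of a type and from less RNA per cell cannot be told apart in such bulk samples.

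RMA, the summary used for the deposited log2 values, gives no detection call. As a reference for probe sets with little or no target, 95% of the 82 olfactory receptor genes on the array had a mean below 8.05. For 25 of the 45 members both group means lay in that range, 12 of the 17 ligands and 7 of the 9 secreted antagonists among them. The same held for 9341 of all 19775 genes. For 20 members at least 1 group mean lay above that range. A value in that range does not show that a gene was silent, since probe sets differ in brightness, and folds between dim values understate a change.

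**Figure D1:**
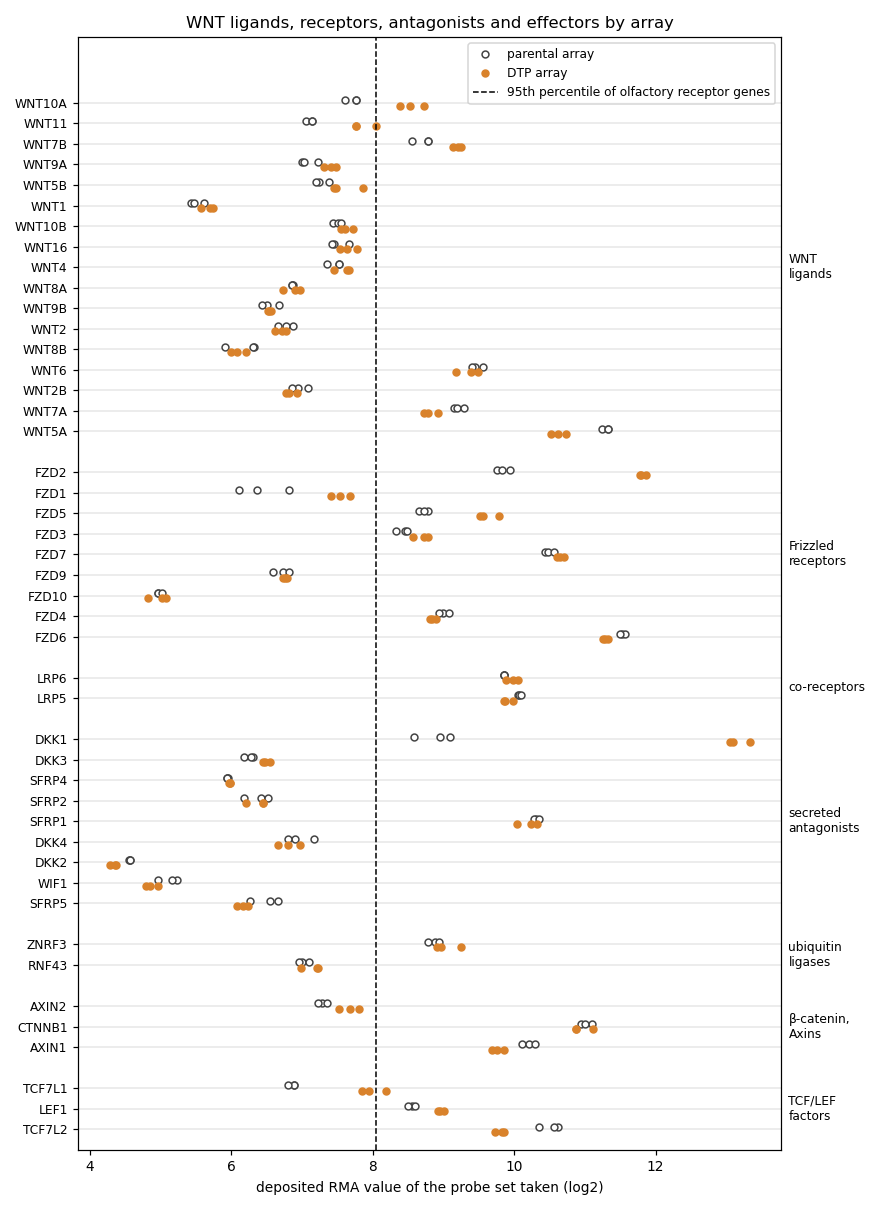
Deposited log2 values (horizontal axis) of the 45 members by gene and role (vertical axis), with 1 open point for each of the 3 parental arrays and 1 filled point for each of the 3 DTP arrays. The dashed line marks 8.05, the 95th percentile of olfactory receptor genes. DKK1 moved from between 8.58 and 9.09 to between 13.05 and 13.33, and most ligands and antagonists lie left of the line on all 6 arrays.

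The sequences below show the letters just before the transcription start of DKK1 and TCF7L2, because these were the called members whose upstream window held a word that TCF/LEF factors are known to bind. The search used CTTTG followed by 2 letters that were each A or T, on both strands of the 250 bases before each start. Words on opposite strands can share those last 2 letters. Windows came from RefSeq (GRCh38.p14), which here held 36 windows for 30 of the 45 members and 10 windows for 7 of the 9 called members. Of all 35116 windows 12% held a word, as did 2 of the 36 windows of members. The DKK1 window held one word (CTTTGAA) that began 95 bases before the start and another (CTTTGTT) that began 76 bases before it, and 1.21% of all windows held more than 1 word. One of the 3 TCF7L2 windows, which belong to different start sites, held CTTTGTT once. The 150 bases before each start are given 5′ to 3′ on the plus strand, which is the gene's strand in both cases, with the words in capitals.
DKK1, chr10:52314131-52314280: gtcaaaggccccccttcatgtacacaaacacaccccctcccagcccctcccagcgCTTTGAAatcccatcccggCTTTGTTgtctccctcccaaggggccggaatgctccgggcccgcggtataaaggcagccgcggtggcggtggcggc
TCF7L2, chr10:113126483-113126632: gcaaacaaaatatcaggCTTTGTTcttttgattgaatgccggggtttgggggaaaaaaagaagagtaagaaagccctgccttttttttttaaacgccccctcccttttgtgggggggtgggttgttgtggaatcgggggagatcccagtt
A match describes the letters only. No binding was measured, and the arrays do not show which start site was used.

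Of the 9 secreted antagonists DKK1 alone was called, where 8.08% of all genes were called higher and 6.13% lower. The log2 values of DKK1 were 9.09, 8.58 and 8.96 on the parental arrays and 13.05, 13.33 and 13.10 on the DTP arrays. The groups lay over 3 log2 units apart and did not overlap. The log2 fold change was 4.28 ± 0.12 (SE, n = 3 per group, limma adjusted p = 3.3e-11), from 1 probe set. The other Dickkopf genes had small differences, with both group means in the olfactory receptor range. DKK3, a divergent family member, had a log2 fold change of 0.23 and DKK2 one of -0.23 (limma adjusted p = 0.015 and 0.012), both below the fold minimum, and DKK4 had one of -0.15 without passing the test (0.28). The 6 probe sets of DKK3 ran from -0.33 to 0.44. SFRP1, a WNT-binding decoy with 4 probe sets, had values of 10.31, 10.28 and 10.36 in parental cells and 10.03, 10.24 and 10.32 in DTPs. These ranges overlapped, and its log2 fold change of -0.12 had a 95% interval from -0.29 to 0.057. SFRP5 (-0.33) and WIF1 (-0.25) passed the adjusted p below the fold minimum, with all their values in the olfactory receptor range. SFRP2 and SFRP4 had log2 fold changes of -0.0098 and 0.038.

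Of the 9 Frizzled receptors 3 were called, all higher in DTPs, where 8.08% of all genes were called higher. FZD2, a receptor for WNT5A among other ligands, had values of 9.94, 9.76 and 9.82 in parental cells and 11.78, 11.80 and 11.86 in DTPs. The DTP arrays differed from each other by less than 0.1, and every one was well above the parental arrays. Its log2 fold change was 1.97 ± 0.07 (SE, limma adjusted p = 3.0e-10), and its second probe set gave 1.67. FZD5 had values of 8.78, 8.65 and 8.72 in parental cells and 9.79, 9.56 and 9.52 in DTPs, a 1.87-fold rise (0.90 ± 0.08 SE, adjusted p = 1.5e-06). The groups did not overlap, and the second probe set of FZD5 gave 0.38, which did not reach the fold minimum. FZD1 had values of 6.37, 6.11 and 6.82 in parental cells and 7.41, 7.54 and 7.68 in DTPs, a 2.16-fold rise (1.11 ± 0.14 SE, adjusted p = 3.3e-05). Both group means of FZD1 lay in the olfactory receptor range, and its parental SD of 0.36 was the largest of any member. With the mean over its 3 probe sets the log2 fold change of FZD1 was 0.49 and the call was lost.

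None of the other 6 Frizzled receptors was called by limma, and 4 had an unadjusted p under 0.05, against 50.9% of all genes. FZD6, which acts mainly in planar polarity, had values of 11.52, 11.57 and 11.49 in parental cells and 11.26, 11.28 and 11.32 in DTPs. The groups did not overlap, but the log2 fold change of -0.24 (limma adjusted p = 0.0091) did not reach 1.5-fold. FZD3 also stayed below that fold, at 0.27 (0.011). FZD7 (0.16, adjusted p = 0.082) and FZD4 (-0.15, 0.085) did not pass the test. FZD9 and FZD10 had log2 fold changes of 0.049 and -0.0067 in the olfactory receptor range. Neither co-receptor was called by limma, and 1 of them, LRP5, had an unadjusted p under 0.05. LRP6 had values of 9.86, 9.86 and 9.85 in parental cells and 9.99, 9.88 and 10.05 in DTPs, and a log2 fold change of 0.12 with a 95% interval from -0.035 to 0.27 (adjusted p = 0.20). LRP5 had values of 10.06, 10.07 and 10.09 in parental cells and 9.85, 9.98 and 9.87 in DTPs, and a log2 fold change of -0.17 with an interval from -0.32 to -0.028 (adjusted p = 0.052). The groups did not overlap for either co-receptor, as for 53.7% of all genes, and both intervals lay within the fold minimum of 0.58 on the log2 scale. Of the ubiquitin ligases, ZNRF3 had values of 8.88, 8.79 and 8.94 in parental cells and 8.96, 8.92 and 9.25 in DTPs, with overlapping groups (0.17 ± 0.09 SE, adjusted p = 0.14), and RNF43 had a log2 fold change of 0.13 (0.24).

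**Figure D2:**
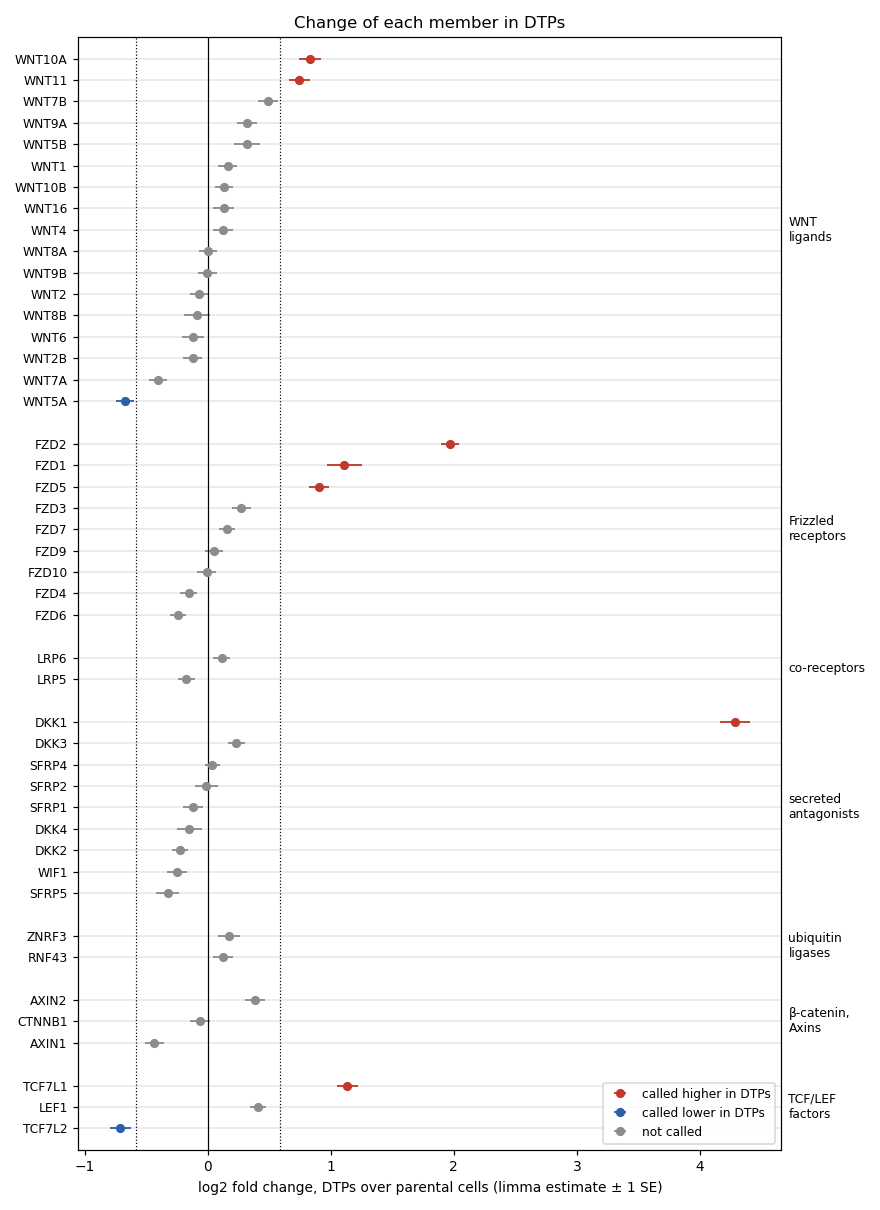
Log2 fold change, DTP minus parental (horizontal axis), for the 45 members by gene and role (vertical axis), from limma with 3 arrays per group. Lines are 1 SE, dotted lines mark the fold minimum of 1.5, red points were called higher, blue points lower and grey points were not called. The called members run from -0.71 for TCF7L2 to 4.28 for DKK1.

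Of the 17 ligands 2 were called higher and 1 lower, where 8.08% and 6.13% of all genes were. WNT5A, a ligand of signalling without β-catenin, had values of 11.24, 11.32 and 11.32 in parental cells and 10.62, 10.74 and 10.52 in DTPs. It fell by 0.67 on the log2 scale (± 0.07 SE, limma adjusted p = 8.5e-06), a level 1.59-fold lower, and the groups did not overlap. Its second probe set gave -0.52. Centring the arrays on genes of ribosomal proteins (-0.55) or on the spike-ins (-0.52) ended the call. WNT10A, a ligand of β-catenin signalling in skin appendages and teeth, had values of 7.61, 7.76 and 7.76 in parental cells and 8.52, 8.72 and 8.38 in DTPs, a 1.78-fold rise (0.83 ± 0.09 SE, adjusted p = 7.0e-06). The groups did not overlap, but its dimmer probe set had a log2 fold change of -0.12, and with the mean of both the change was 0.36 and the call was lost. WNT11, which drives cell movements in embryos, had values of 7.06, 7.15 and 7.14 in parental cells and 7.76, 8.05 and 7.77 in DTPs. It rose 1.67-fold (0.74 ± 0.08 SE, adjusted p = 1.1e-05) with both means in the olfactory receptor range.

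WNT7B, a ligand of the lung epithelium, is also one of the candidate targets of miR-371-3p in the study's small interfering RNA screen. Its values were 8.55, 8.79 and 8.78 in parental cells and 9.20, 9.25 and 9.14 in DTPs. Every DTP array lay above every parental array, and the 1.40-fold difference (0.49 ± 0.08 SE, limma adjusted p = 2.4e-04) stayed below the fold minimum. Centring the arrays on genes of ribosomal proteins (0.61) or on the spike-ins (0.64) made it a call. Its brighter probe set, of the _x_at kind, gave 0.23, and the mean of both gave 0.36, neither of them a call. WNT7A, its close relative, differed the other way, with values of 9.16, 9.19 and 9.29 in parental cells and 8.78, 8.92 and 8.73 in DTPs. The log2 fold change of WNT7A was -0.40 (adjusted p = 6.7e-04), also short of 1.5-fold. WNT9A and WNT5B both had log2 fold changes of 0.32 and passed the adjusted p (0.0054 and 0.025) with values in the olfactory receptor range. The other 10 ligands did not pass the test, with log2 fold changes from -0.12 for WNT2B to 0.16 for WNT1, and of these the probe set taken for WNT6 had group means above that range.

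Among the TCF/LEF factors TCF7L1 and TCF7L2 changed in opposite directions. TCF7L2, the main partner of β-catenin in gut epithelium, had values of 10.35, 10.62 and 10.57 in parental cells and 9.83, 9.72 and 9.86 in DTPs. The groups did not overlap, and it fell by 0.71 on the log2 scale (± 0.08 SE, limma adjusted p = 1.4e-05). Of its 7 probe sets 5 were called lower, with log2 fold changes from -0.77 to -0.59, 1 had -0.53 and the dimmest had 0.13. The call of TCF7L2 was lost under spike-in centring (-0.56) and with the mean of its probe sets (-0.54). TCF7L1, known mostly as a repressor of WNT target genes in stem cells, had values of 6.89, 6.89 and 6.80 in parental cells and 7.95, 8.18 and 7.85 in DTPs. It rose with no overlap (1.13 ± 0.09 SE, adjusted p = 3.0e-07), from 1 probe set whose group means both lay in the olfactory receptor range. LEF1, a factor that is itself a WNT target in many tissues, had values of 8.55, 8.60 and 8.51 in parental cells and 9.00, 8.96 and 8.93 in DTPs. Its groups did not overlap and its log2 fold change of 0.41 (adjusted p = 2.2e-04) did not reach 1.5-fold, while its other 2 probe sets gave 0.040 and 0.022.

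CTNNB1, which encodes β-catenin, had values of 10.94, 11.10 and 11.01 in parental cells and 10.87, 10.88 and 11.11 in DTPs. The groups overlapped, and the log2 fold change of -0.064 had a 95% interval from -0.24 to 0.11 (limma adjusted p = 0.56). Its sign turned under ribosomal gene centring (0.053) and spike-in centring (0.084). AXIN1, the scaffold of the destruction complex, had values of 10.11, 10.21 and 10.30 in parental cells and 9.76, 9.86 and 9.68 in DTPs. The groups did not overlap, and the log2 fold change of -0.43 (adjusted p = 4.4e-04) did not reach 1.5-fold. AXIN2, a second scaffold and a widely used WNT target gene, had values of 7.29, 7.22 and 7.35 in parental cells and 7.81, 7.67 and 7.53 in DTPs. These did not overlap either, with a log2 fold change of 0.38 (adjusted p = 0.0019) in the olfactory receptor range.

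For 26 members the array carried more than 1 probe set, and for 4 genes that were not called by their brightest probe set another was called higher. Over all probe sets of members 12 were called higher and 6 lower, 18.8% of 96, where 12.5% of all tested probe sets were called in either direction. These bases differ, since all tested probe sets include 11721 with no gene symbol and 1801 with several. For WNT6, a ligand of epithelial and kidney development, 1 of 4 probe sets read 7.03, 7.41 and 7.10 in parental cells and 9.19, 9.32 and 9.09 in DTPs. That is a log2 fold change of 2.02 with no overlap, while the other 3 probe sets gave -0.12, -0.041 and 0.025. WNT6 and WNT10A are neighbouring genes. For AXIN2, 1 of 4 probe sets read 6.42, 6.33 and 6.34 in parental cells and 8.22, 8.16 and 7.76 in DTPs, a log2 fold change of 1.68, and the others gave 0.14 to 0.38. The mean over the 4 probe sets of AXIN2 was called higher (0.60).

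WNT4, a ligand of kidney and reproductive tract development, showed the same kind of split. One of its 3 probe sets had a parental mean of 6.62 ± 0.19 and a DTP mean of 8.05 ± 0.08 (SD, n = 3), a log2 fold change of 1.43 with no overlap, whereas the other 2 gave 0.12 and 0.15. For CTNNB1 the 2 dim probe sets gave 0.90 and 0.55 beside -0.064 for the bright one, and the mean over all 3 was 0.46 (limma adjusted p = 5.5e-04). Which transcript forms these probe sets read was not tested. The probe sets of FZD2 and of WNT5A differed from each other by 0.29 and 0.15 on that scale.

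**Figure D3:**
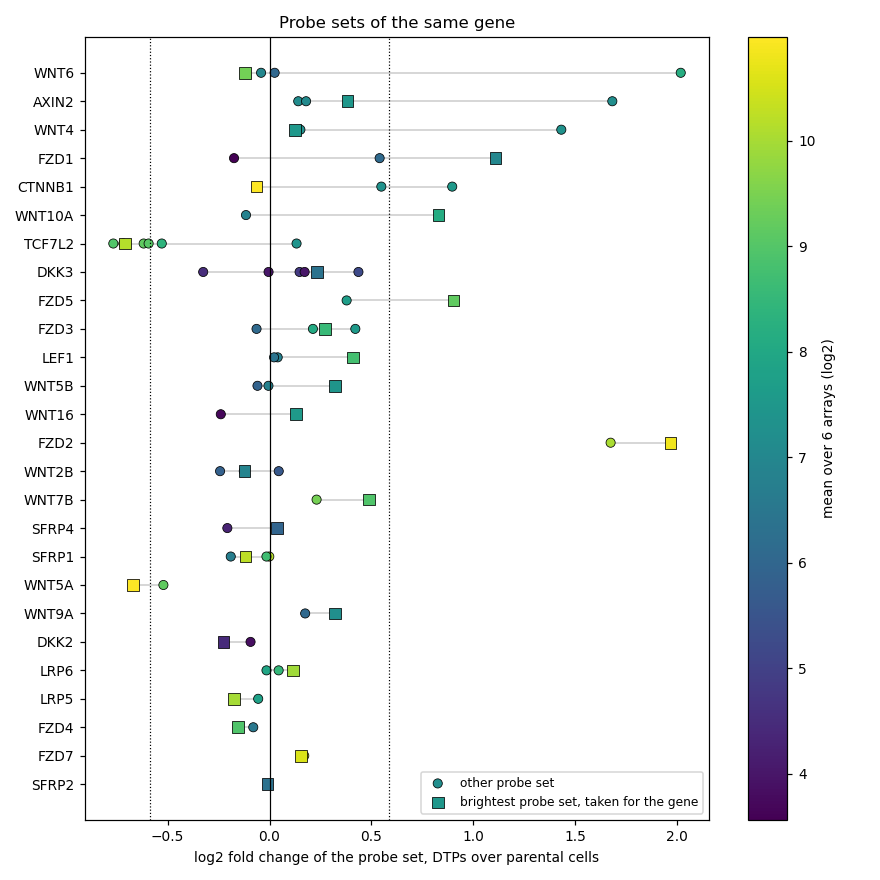
Log2 fold change of each probe set (horizontal axis) for the 26 members with more than 1 probe set (vertical axis), coloured by its mean log2 value over the 6 arrays. Squares are the probe set taken for the gene, circles the others, and dotted lines mark the fold minimum of 1.5. Single probe sets of WNT6 (2.02), AXIN2 (1.68) and WNT4 (1.43) stand apart from the other probe sets of their genes.

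Other genes of the pathway were taken from 7 lists. Over these lists, each gene counted once, 8 of 89 measured genes were called higher, 7 lower and 74 neither, with a median log2 fold change of -0.016. These shares, 8.99% higher and 7.87% lower, were near the 8.08% and 6.13% of all genes. WLS, the carrier that takes WNT proteins to the cell surface, rose from a parental mean of 8.58 ± 0.06 to a DTP mean of 10.11 ± 0.08 (SD, n = 3), a log2 fold change of 1.54 ± 0.07 (SE, limma adjusted p = 2.7e-09). All 3 probe sets of WLS were called higher. It was the only one called of 3 measured genes of WNT secretion and removal, the WNT-inactivating enzyme NOTUM having a log2 fold change of -0.067. Of 7 R-spondins and their LGR receptors, RSPO3, which protects Frizzled receptors from RNF43 and ZNRF3, was called higher (0.72 ± 0.15 SE, adjusted p = 0.0017). Both its means lay in the olfactory receptor range, and it was not called without DTP replicate 1 or by the methods' t-test.

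None of 9 other secreted or membrane antagonists was called by limma or by the methods' t-test, and 3 passed limma's adjusted p, where 44.5% of all genes did. The same number had an unadjusted p under 0.05. The DKK1 co-receptor KREMEN1 had the smallest p (log2 fold change 0.41, adjusted p = 2.5e-04), below the fold minimum. Of 13 receptors other than Frizzled and planar polarity genes 1 was called, where 8.08% of all genes were called higher and 6.13% lower. This was the cell-surface glypican GPC4, 3.68-fold higher (1.88 ± 0.10 SE, limma adjusted p = 1.4e-08), with both its probe sets called. Of 21 Dishevelled and destruction complex genes 2 were called lower, where 6.13% of all genes were, and none higher. DVL1, a Dishevelled adaptor that links Frizzled to Axin, was 1.67-fold lower (-0.74 ± 0.08 SE, adjusted p = 7.5e-06). Its relative DVL3, named after its values were seen, had a log2 fold change of 0.52 (adjusted p = 6.1e-05), below the fold minimum. Under ribosomal gene centring 1 gene of this list was called higher and 1 lower. The β-catenin kinase CSNK1A1 was 1.59-fold lower by the probe set taken, while 4 of its 13 probe sets were called higher and 2 lower, and it was not called by its brightest probe set or by the mean.

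Among 17 nuclear partners of β-catenin 2 were called higher and 1 lower, where 8.08% and 6.13% of all genes were. The Groucho co-repressors TLE2 (2.65-fold, 1.40 ± 0.08 SE, limma adjusted p = 1.4e-08) and TLE1 (1.85-fold, 0.89 ± 0.07, adjusted p = 3.5e-07), which bind TCF/LEF factors in place of β-catenin, rose. Both probe sets of TLE2 were called, but 3 of the 5 of TLE1, whose mean gave 0.52 and no call. TBL1X, a co-factor of both β-catenin and repressor complexes, was 1.90-fold lower (-0.93 ± 0.10, adjusted p = 1.1e-05), with 5 of its 6 probe sets called lower.

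Of 23 measured β-catenin target genes outside the members, 3 were called higher and 4 lower, where 8.08% and 6.13% of all genes were, and 16 neither, and their median log2 fold change was -0.067. BMP4, a secreted signal, was 3.47-fold higher (1.79 ± 0.07 SE, limma adjusted p = 4.0e-10), whereas the AP-1 factor FOSL1 was 5.56-fold lower (-2.48 ± 0.08) and the Notch ligand JAG1 3.12-fold lower (-1.64 ± 0.07). The remaining called genes, named here after their values were seen, were FGF18 (0.79) and MMP7 (0.64) among the higher, and MYC (-1.40) and CD44 (-0.70) among the lower. FGF18 and MMP7 had both means in the olfactory receptor range. Only 1 of the 6 FGF18 probe sets passed, and the mean of the 6 (0.21) was not called. NKD1 and LGR5, targets used like AXIN2 as readouts of the pathway, had log2 fold changes of -0.047 and 0.14 and did not pass the test, and SP5 had 0.56, just below the fold minimum. These 3 were also chosen after their values were seen, and by the probe sets taken all had both means in the olfactory receptor range. The second probe set of LGR5 was called higher, as was the mean of both (0.63).

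**Figure D4:**
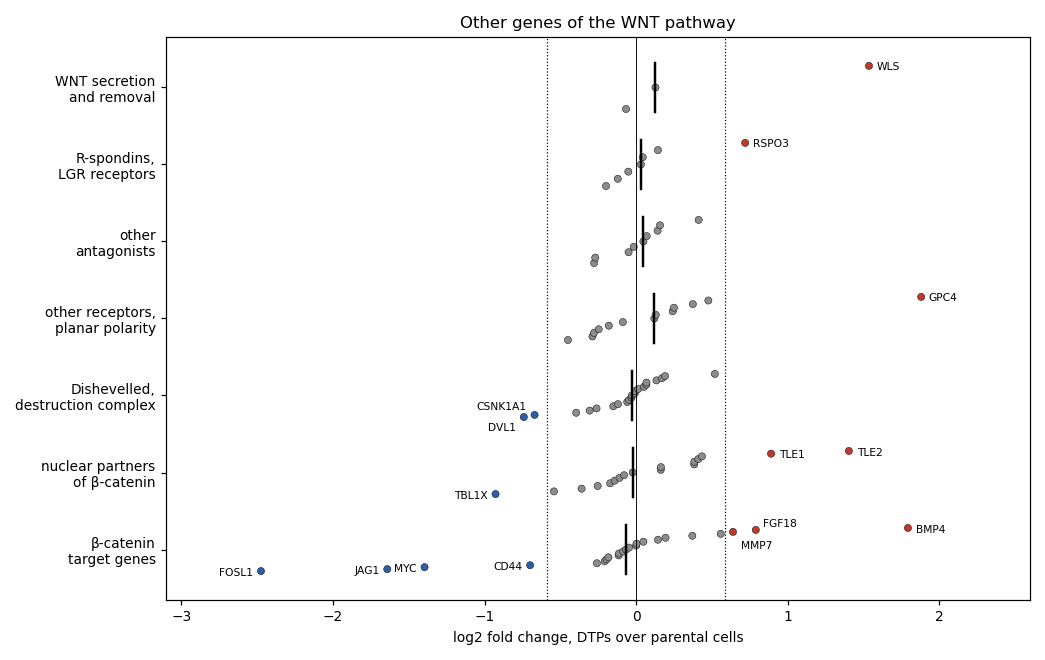
Log2 fold change, DTP minus parental (horizontal axis), for the measured genes of 7 pathway lists (vertical axis), where thick bars are list medians and dotted lines the fold minimum of 1.5. Called genes are named, in red if higher and blue if lower, and run from -2.48 for FOSL1 to 1.88 for GPC4.

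The markers of epithelium were bright on every array. Beside the marker counts below, 8.08% of all genes were called higher and 6.13% lower. Of all genes 44.5% passed the adjusted p at any fold, and 50.9% had an unadjusted p under 0.05. All 8 epithelial markers had group means above the olfactory receptor range. Of these, 5 passed the adjusted p higher and 1 lower, EPCAM, with 13.76 in parental cells and 13.57 in DTPs. KRT7 was called higher (0.97) by 1 of its 4 probe sets but not by their mean (0.38). ELF3 was not called by the probe set taken (0.48), but 2 of its 3 probe sets and the mean of all 3 (0.89) were called higher. Of 12 fibroblast markers COL1A1 (2.67) and MFAP5 (0.98) were called higher, while COL6A3 (-0.46) and COL1A2 (-0.26) passed the adjusted p in the other direction, below the fold minimum. The median log2 fold change of the 12 was -0.030, 6 of them had a lower sign, and 11 lay in the olfactory receptor range. LUM had a mean of 4.36 in both groups by the probe set taken, but its other probe set was called higher. The summed log2 level of the 12 markers was 81.4 to 81.9 on parental arrays and 84.3 to 84.8 on DTP arrays. Without COL1A1 and MFAP5 the sum of the other 10 was 66.9 to 67.2 on parental and 65.7 to 66.8 on DTP arrays. The labels name PC9 cells only, and the part of any other cells in the changes of DKK1, FZD2 and WNT5A was not tested. The 5 endothelial markers had 1 called lower, PECAM1 (-0.69). Of its 5 probe sets 4 were called lower, and the mean of all 5 gave -1.29. Limma called none of the 3 measured leukocyte or 4 lung lineage markers. CD14 (0.34) of the first list and SFTPB (-0.46) of the second passed the adjusted p. Both lists had 1 gene with an unadjusted p under 0.05. The log2 difference between 3′ and 5′ control probe sets was -0.17 to -0.14 (parental) and -0.18 to -0.17 (DTP) for GAPDH and 0.14 to 0.19 and 0.03 to 0.08 for β-actin, each with an exact permutation p of 0.10, the smallest that 3 against 3 arrays allow.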

How the data were processed

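RNA of 3 parental and 3 DTP samples was hybridized to 1-colour Affymetrix U133 Plus 2.0 arrays. The deposited log2 values are RMA probe set summaries made by the authors with the affy package after quantile normalization (versions not given in the sources used here). Quantile normalization hides a change of total mRNA per cell.

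The file held 54675 probe sets, less 62 controls. Symbols came from the platform annotation, updated by gene ID. For each gene the probe set with the highest mean was taken, _x_at sets (which can bind other transcripts) only where no other existed. The 2 groups were fitted without covariates over all genes and, separately, all probe sets, by lmFit and eBayes (limma 3.58.1, R 4.3.3; two-sided), with no filter on low values. Errors are SE of the log2 fold change or SD, n = 3 per group. Adjusted p-values in the text are those over genes. The fits were tested on simulated data. Labels do not say how cultures were replicated. The methods of the study describe its replicates in general as biological, without naming these arrays. The p-values thus reflect no more than the spread of these 6 arrays, which may be technical.

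Members, lists and tests were chosen with earlier results of these data known. The genes named were the called members, the member with the smallest p in a role without calls, CTNNB1, AXIN2, LRP5, LRP6, TCF7L2 and WNT7B, and up to 3 called genes of each list (or the 1 with the smallest p). Other members are given by value only. Promoter sequence is from RefSeq, and no protein sequence was used here. Alternatives were a replicate block, fits without each array in turn, centring on 52 ribosomal protein genes or 18 spike-in probe sets, cyclic loess, leaving out dim probe sets, other choices of probe set, trend and robust variances, array weights, the methods' t-test and other fold minimums.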

Additional observations from a re-analysis of the deposited data

How the results depend on the processing

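The 7 members called higher and the 2 called lower were called in the same direction with the replicate block, without any one array, under cyclic loess, with the brightest of all probe sets, with an intensity trend, with array weights and with the methods' t-test. The replicate block left 1597 genes higher and 1212 lower. Same-numbered arrays did not deviate together (r across genes of -0.13, 0.083 and -0.046), which does not settle whether the samples were paired, and the labels do not say. Leaving out single arrays gave 1552 to 1657 genes higher, 1134 to 1352 lower, a member median of 0.043 to 0.083, and 0 or 1 called R-spondin or LGR gene (0 without DTP replicate 1). The median over all genes moved from -0.048 to 0.069 with ribosomal gene centring and 0.10 with spike-in centring, and the share of calls that were higher moved from 56.9% to 70.9% and 74.2%. The spike-ins themselves differed by -0.15 between groups (SD 0.10 and 0.11). Under ribosomal gene centring 8 members were called higher and 1 lower (TCF7L2), the member median was 0.17, 2 planar polarity or other receptor genes were called, and CTNNB1 turned to 0.053. Under spike-in centring 795 genes were lower, 8 members were called higher and 0 lower (7933 genes had an unadjusted p under 0.05), the median was 0.20, 2 such receptor genes were called, and CTNNB1 turned to 0.084. The median was 0.097 under cyclic loess, 0.065 with array weights and 0.13 without dim probe sets, a filter that kept 27 of the 45 members, dropped FZD1 and left 0 called R-spondin or LGR genes. With the mean over all probe sets 6 members were higher (AXIN2 joined, FZD1 and WNT10A left) and 1 lower (WNT5A), CTNNB1 turned to 0.46, 2 R-spondin or LGR genes were called and 1 Dishevelled or destruction complex gene, as also with the brightest of all probe sets. The methods' t-test called 1574 genes higher, 1200 lower and 0 R-spondin or LGR genes. At a fold over 2 there were 679 genes higher and 431 lower, 4 members higher (DKK1, FZD2, TCF7L1 and FZD1) and 0 lower, and of the lists 0 R-spondin or LGR, 0 Dishevelled or destruction complex, 1 nuclear partner and 4 target genes. With no fold minimum there were 4043 higher and 4754 lower, 14 members higher and 8 lower, and of the lists 2 R-spondin or LGR, 3 other antagonists, 8 planar polarity or other receptor, 6 Dishevelled or destruction complex, 10 nuclear partner and 11 target genes. Apart from filters and thresholds, whose construction sets the counts, the cause of these changes was not tested. Dim signal limits 25 of the 45 members.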
